A study of Homo sapiens with 9 samples.

Results

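The ADAM and ADAMTS metalloproteases of HSC-3 cells, a human oral squamous cell carcinoma line, were taken as the protein-coding genes whose name is ADAM or ADAMTS followed by a number and nothing else. The gene table held 39 of them, 20 ADAM and 19 ADAMTS genes, among 60612 genes of which 19937 are protein-coding. A further 2 numbered names, ADAM5 and ADAM6, carry another class in the table and were left out.

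ADAM proteins are membrane proteins with an extracellular metalloprotease domain. Many of them cut growth factors, receptors and adhesion molecules off the cell surface, a process called ectodomain shedding, which releases ligands of the EGF receptor and starts Notch signalling. ADAMTS proteins are their secreted relatives with thrombospondin repeats, and they cut proteoglycans, procollagens and other matrix proteins. Both families are made as inactive precursors, many of which furin-type convertases activate, and TIMP proteins inhibit some of them. ADAM10 and ADAM17 are among the members known to release EGF receptor ligands.

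RNA was sequenced from 3 groups of 3 libraries each, all from HSC-3. MPTN is taken here as the line grown with apatinib until it resisted the drug, MPTN24 as cells given apatinib for 24 hours, and WT as the line the others came from. Apatinib is a kinase inhibitor whose main target is the VEGF receptor KDR. The group names match the study's description in this way but are not spelled out in the labels. The labels do not say whether apatinib was present when the resistant cells were harvested, whether that line is 1 clone, or whether the replicates came from separate cultures, so the p-values below measure the spread between these libraries, which may be technical.

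The libraries summed to between 60383313 and 98890929 estimated counts and had a count for 19947 to 21374 genes. Epithelial markers were high in every group, with 8 of 8 passing the low-count filter and a sum of 13549 to 15545 CPM (counts scaled to the TMM-adjusted library total) in MPTN, 12796 to 14047 CPM in MPTN24 and 12616 to 19026 CPM in WT. In edgeR's test described below, EPCAM, KRT5 and TP63 were lower and KRT17 higher in MPTN than in WT, EPCAM, KRT14 and TP63 were lower in MPTN24 than in WT, and KRT17 and KRT6A were higher and EPCAM lower in MPTN than in MPTN24. Without replicate 1 of WT, 1 was higher and 4 lower in MPTN than in WT, and 6 were lower in MPTN24 than in WT. The part of these markers in the results below was not tested. The leukocyte markers PTPRC, CD3E, TYROBP and NKG7 and the endothelial markers CLDN5 and KDR had 0 counts in all 9 libraries. Of the others, CSF1R averaged 5.51 CPM in MPTN, 4.99 CPM in MPTN24 and 4.73 CPM in WT, VWF averaged 0.745 CPM in MPTN, 1.01 CPM in MPTN24 and 0.505 CPM in WT, and neither was called. CD68, a lysosomal protein gene not limited to leukocytes, averaged 77.3 CPM in MPTN, 110 CPM in MPTN24 and 70.6 CPM in WT, and was higher in MPTN24 than in WT (edgeR adjusted p = 0.0015) and lower in MPTN than in MPTN24 (edgeR adjusted p = 0.0071). The sum of the fibroblast markers stayed between 10.8 and 19.4 CPM over all libraries. Replicate 1 of WT stood apart from the other WT libraries: FOS, an immediate early transcription factor, had 73.4 CPM there against 718 and 693 CPM in replicates 2 and 3, and MMP1, a secreted collagenase, had 3592 CPM against 923 and 974 CPM. Mitochondrial genes took 4.66% to 5.13% of the counts in MPTN, 5.04% to 5.73% in MPTN24 and, among the WT libraries, 4.74% in replicate 1, 2.72% in replicate 2 and 3.02% in replicate 3. Results against WT that change without this library are therefore given both ways.

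The protease domain of both families holds its zinc in a short motif, histidine, glutamate, a spacer, histidine, a spacer, glycine or asparagine, a spacer and a last histidine. The coding sequence of this motif is shown because proteases of both families need it to cut. It was found in the annotated transcripts of 12 of 20 ADAM and 18 of 19 ADAMTS genes. The search allowed only glycine or asparagine between the last histidines. ADAMTS8, the ADAMTS gene without a match, may therefore hold a site with another residue there, which was not tested. The 8 sites below belong to abundant members or to members called in a comparison, and the site of ADAM9 is not shown. Letters run 5′ to 3′ and capitals mark the codons of the conserved residues.
ADAMTS1: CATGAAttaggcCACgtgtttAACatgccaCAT
ADAM19: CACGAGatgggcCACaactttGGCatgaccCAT
ADAM10: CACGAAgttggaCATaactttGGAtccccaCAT
ADAM17: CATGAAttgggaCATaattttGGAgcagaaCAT
ADAM15: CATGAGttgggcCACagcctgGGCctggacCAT
ADAM8: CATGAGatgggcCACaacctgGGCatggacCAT
ADAMTS6: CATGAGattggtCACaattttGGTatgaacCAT
ADAMTS13: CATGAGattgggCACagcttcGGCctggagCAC
All positions are on GRCh38 with the GENCODE 29 transcripts. The ADAMTS1 site lies at chr21:26841143-26841867 on the minus strand and spans 1 exon junction. The ADAM19 site lies at chr5:157505734-157505766 on the minus strand, within an exon. The ADAM10 site spans a junction at chr15:58627881-58633225, minus strand. The ADAM17 site is exonic at chr2:9510078-9510110, minus strand. The ADAM15 site is exonic at chr1:155056995-155057027, plus strand. The ADAM8 site is exonic at chr10:133271880-133271912, minus strand. The ADAMTS6 site spans a junction at chr5:65300116-65329394, minus strand, and the ADAMTS13 site spans one at chr9:133426329-133428649, plus strand.

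The sites differed between members. The ADAM15 and ADAM8 sites differed at 3 of 33 bases and those of ADAM19 and ADAM8 at 5, while the ADAM10 and ADAM17 sites differed at 8. ADAMTS1 carries asparagine at the position where most members carry glycine, as do ADAMTS4, ADAMTS9 and ADAMTS15, and its site differed from that of ADAMTS15 at 6 of 33 bases. Among the members that passed the filter, the motif was found in 8 of 11 ADAM and 6 of 6 ADAMTS genes. It was not found in ADAM11, ADAM22 and ADAM23, which are known as receptors without protease activity.

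Of the 39 members, 17 passed the low-count filter and were tested, 11 ADAM and 6 ADAMTS genes. That is 43.6% of the members, against 67.6% of all protein-coding genes. A further 11 members had 0 counts in all 9 libraries: ADAM2, ADAM7, ADAM29, ADAM30, ADAM33, ADAMTS5, ADAMTS8, ADAMTS9, ADAMTS10, ADAMTS18 and ADAMTS19. Since 1 read pair may give 4 counts, a count of 0 was taken to allow up to 12 counts, or 0.018 CPM over the 9 libraries, a limit that covers counting error only. ADAMTS5, with ADAMTS4 the best known aggrecan-cutting enzyme, was thus not detected, and ADAMTS4 had 4 counts in replicate 3 of WT and 0 in the other 8 libraries. The remaining 10 untested members, ADAM18, ADAM20, ADAM21, ADAM32, ADAMTS2, ADAMTS3, ADAMTS7, ADAMTS12, ADAMTS14 and ADAMTS20, had at most 25 counts in a library.

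Levels per transcript length, as the authors' FPKM (fragments scaled by transcript length and library size), were dominated by 3 ADAM genes. ADAM15, ADAM8 and ADAM9 together held 85.8% of the summed FPKM of all members. ADAM15, a membrane protease with an integrin-binding domain, averaged 112 ± 26.7 FPKM in MPTN, 114 ± 8.77 in MPTN24 and 85.9 ± 13.4 in WT (SD, n = 3 each). ADAM8, a leukocyte and tumour cell sheddase that activates itself, averaged 55.7 ± 0.676 FPKM in MPTN, 75.0 ± 3.11 in MPTN24 and 33.2 ± 18.3 in WT. ADAM9, a widely expressed sheddase, averaged 36.9 ± 4.0 FPKM in MPTN, 39.2 ± 3.98 in MPTN24 and 46.8 ± 4.29 in WT. ADAM8 thus stood above ADAM9 in each MPTN and MPTN24 library and in replicate 1 of WT, and below it in replicates 2 and 3 of WT.

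The other members averaged less. ADAMTS1 averaged 13.7 FPKM over the 9 libraries, ADAM17 9.26 FPKM and ADAM10 5.09 FPKM. In WT alone ADAMTS1 averaged 25.0 ± 4.43 FPKM and stood above ADAM8 in replicates 2 and 3. ADAM12 averaged 1.47 FPKM and ADAM19 1.23 FPKM, and their ranges over the libraries, 1.21 to 1.86 FPKM and 0.595 to 2.48 FPKM, overlapped. ADAMTS16 followed at 0.907 FPKM and ADAMTS6 at 0.453 FPKM. The other 7 tested members, ADAM23, ADAM11, ADAMTS17, ADAM22, ADAMTS13, ADAMTS15 and ADAM28, averaged 0.167 FPKM or less. The summed FPKM of all members was 221 to 253 in MPTN, 244 to 268 in MPTN24 and 196 to 223 in WT.

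**Figure D1:**
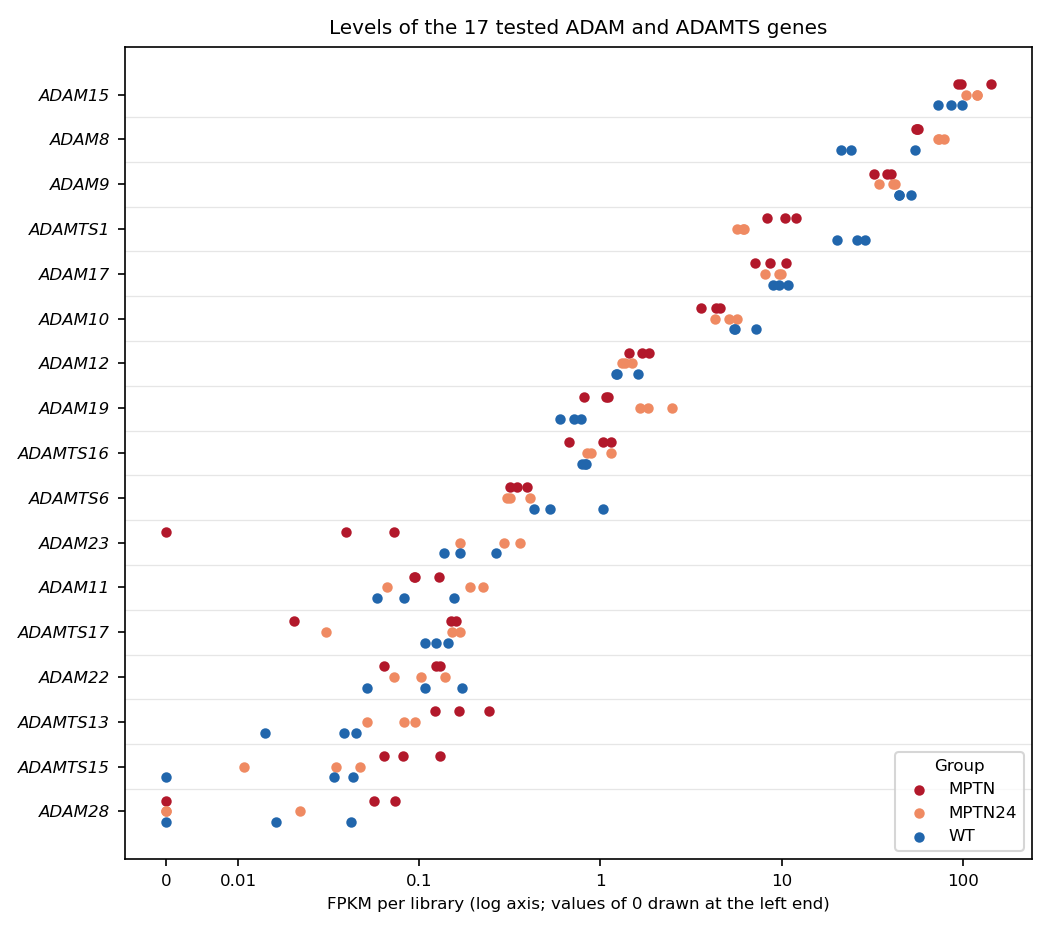
Level of each tested ADAM and ADAMTS gene in FPKM on a log axis, 1 point per library, with MPTN above MPTN24 and WT in each row and genes ordered by their mean. ADAM15, ADAM8 and ADAM9 have the highest means, ADAMTS1 is lowest in MPTN24 and highest in WT, where it reaches the level of ADAM8, and 7 members average 0.167 FPKM or less.

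Each comparison asked which members differed between groups, with edgeR's quasi-likelihood test fitted to all 16990 genes that passed the filter and a Benjamini-Hochberg adjusted p under 0.05 as the call. In MPTN24 against WT, 1 of the 17 tested members was higher (ADAM19) and 2 were lower (ADAMTS1 and ADAM9), where 11.1% of all tested genes were higher and 12.1% were lower. In MPTN against WT, 2 members were higher (ADAM19 and ADAMTS13) and 5 were lower (ADAMTS1, ADAM10, ADAM9, ADAM23 and ADAMTS6), where 18.3% of all tested genes were higher and 18.1% were lower. In MPTN against MPTN24, 1 member was higher (ADAMTS1) and 2 were lower (ADAM19 and ADAM23), where 7.85% of all tested genes were higher and 6.7% were lower. With so few members, the counts do not set the families apart from other genes, and what the data show lies in single members. The median log2 change of the tested members was 0.051 in MPTN24 against WT, 0.14 in MPTN against WT and -0.13 in MPTN against MPTN24, against 0.0047, 0.021 and 0.012 over all tested genes. The first pair of comparisons share the WT libraries, and the MPTN and MPTN24 libraries each enter 2 comparisons.

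**Figure D2:**
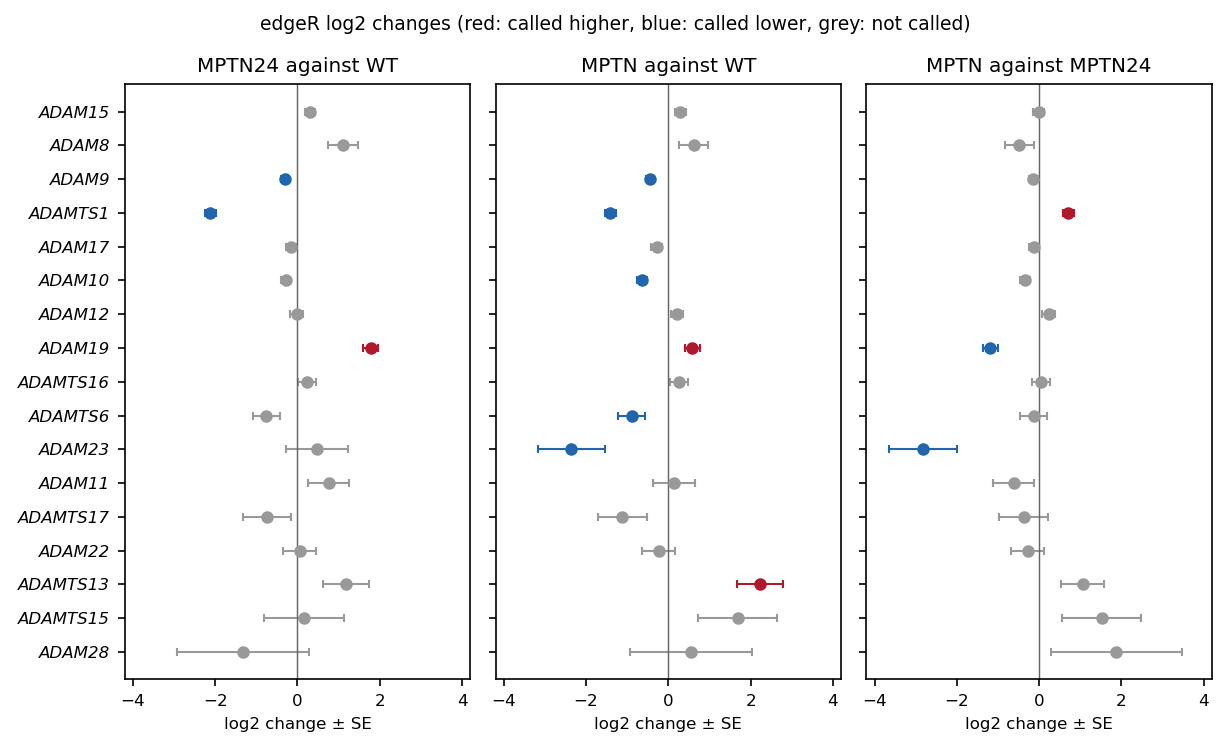
Log2 change with its standard error for each tested member in the 3 comparisons, from edgeR, with genes in the order of their mean FPKM and members called higher in red, lower in blue and not called in grey. ADAMTS1 and ADAM19 are called in all 3 comparisons with opposite signs. Standard errors are widest from ADAMTS6 down and in ADAM8 (0.35 to 0.36), which stands near the top.

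ADAMTS1, a secreted protease that cuts the proteoglycans aggrecan and versican and binds VEGF, had the smallest adjusted p of the members. The gene lies at chr21:26835755-26845409 on the minus strand. It had 64.0, 55.8 and 46.8 CPM in the MPTN libraries, 33, 34.0 and 35.1 CPM in the MPTN24 libraries and 124, 171 and 148 CPM in the WT libraries. No libraries of different groups overlapped, with MPTN24 lowest, MPTN between and WT highest. The log2 change was -2.12 ± 0.13 (SE, n = 3 per group) in MPTN24 against WT, which is 4.33-fold lower (edgeR adjusted p = 2.5e-06). It was -1.41 ± 0.13 in MPTN against WT, 2.66-fold lower (edgeR adjusted p = 4.0e-06). MPTN was 1.63-fold higher than MPTN24 (log2 change 0.71 ± 0.13, edgeR adjusted p = 0.0028). In a bulk sample, fewer cells of a type and less RNA per cell cannot be told apart.

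ADAM19, a sheddase of neuregulins needed for heart development in mice, moved the other way. The gene lies at chr5:157395534-157575775 on the minus strand. It had 6.37, 6.37 and 5.84 CPM in MPTN, 13.5, 11.5 and 17.4 CPM in MPTN24 and 5.22, 3.62 and 3.55 CPM in WT. The groups did not overlap, with MPTN24 highest and MPTN nearer to WT. ADAM19 was 3.43-fold higher in MPTN24 than in WT (log2 change 1.78 ± 0.19, edgeR adjusted p = 9.7e-05) and 2.28-fold lower in MPTN than in MPTN24 (log2 change -1.19 ± 0.19, edgeR adjusted p = 0.00092). The difference of MPTN from WT was smaller, 1.5-fold (log2 change 0.59 ± 0.19, edgeR adjusted p = 0.025), and was not called without replicate 1 or 2 of MPTN or replicate 2 or 3 of WT (edgeR adjusted p = 0.063 to 0.091), with only the groups compared (edgeR adjusted p = 0.053) or with limma on FPKM at either pseudocount (adjusted p = 0.13 and 0.17).

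The span of ADAM19 overlaps NIPAL4 by 14699 bases on the opposite strand, and the library kit did not record strand. NIPAL4, a membrane protein gene of the epidermis, averaged 17.8 CPM in MPTN, 11.7 CPM in MPTN24 and 8.30 CPM in WT. It was called higher in MPTN and in MPTN24 than in WT and higher in MPTN than in MPTN24. The annotation lists no exonic base that the genes share, and the part of NIPAL4 reads in the ADAM19 counts was not tested. CYFIP2, at a mean of 0.926 CPM, shares 62 exonic bases with ADAM19.

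**Figure D3:**
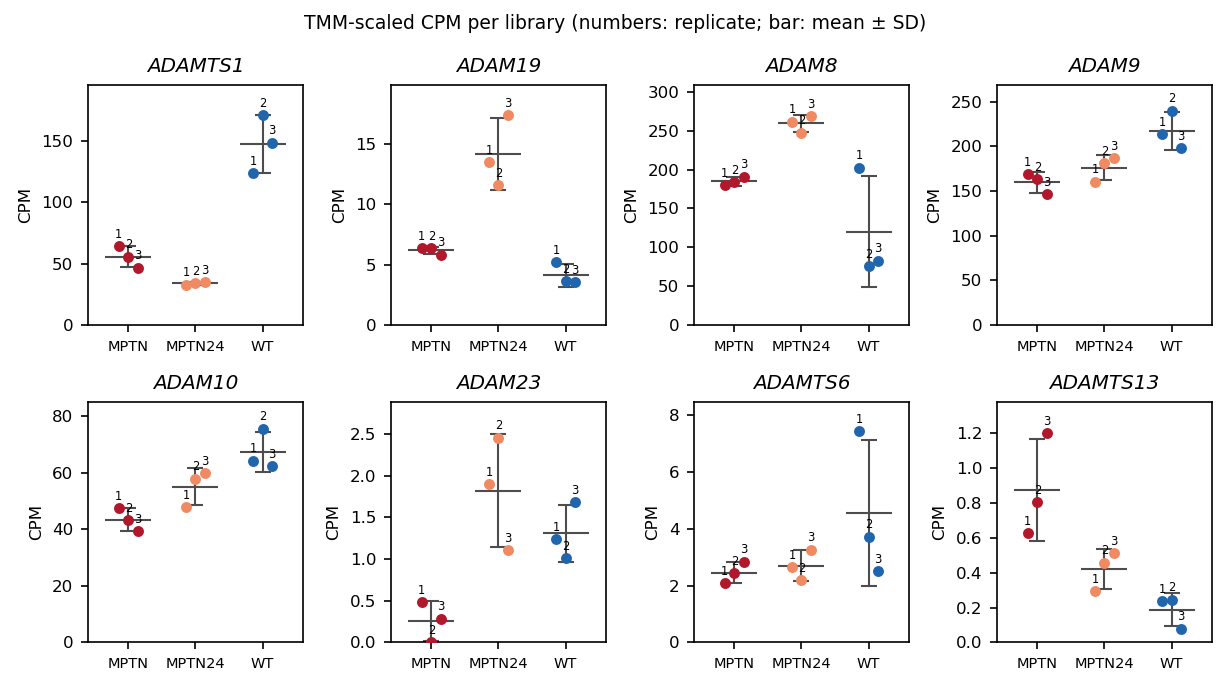
TMM-scaled CPM of 8 members in each library, numbered by replicate, with the mean and SD of each group, for MPTN, MPTN24 and WT from left to right. ADAMTS1 and ADAM19 separate all 3 groups, ADAM8 has 1 WT library at 202 CPM and the others at 76.1 and 82.7 CPM, and ADAM23 has a value of 0 in replicate 2 of MPTN.

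ADAM10 and ADAM17 are the main ectodomain sheddases: ADAM10 makes the cut of Notch receptors that starts their signalling and sheds betacellulin, and ADAM17 releases TNF, amphiregulin and TGF-alpha. ADAM10, at chr15:58588809-58749791 on the minus strand, had 47.5, 43.3 and 39.3 CPM in MPTN, 47.8, 57.9 and 59.8 CPM in MPTN24 and 64.3, 75.6 and 62.5 CPM in WT. In CPM, all MPTN libraries lay below all MPTN24 libraries, and these below all WT libraries. The nearest MPTN and MPTN24 libraries had 47.5 and 47.8 CPM. In FPKM the groups overlapped: replicate 1 of MPTN had 4.59 FPKM and replicate 1 of MPTN24 had 4.31 FPKM. Replicate 3 of MPTN24 had 5.67 FPKM and replicate 3 of WT had 5.43 FPKM. ADAM10 was 1.55-fold lower in MPTN than in WT (log2 change -0.64 ± 0.12, edgeR adjusted p = 0.00086). The steps between were not called: the log2 change was -0.29 ± 0.12 in MPTN24 against WT (edgeR adjusted p = 0.091) and -0.35 ± 0.12 in MPTN against MPTN24 (edgeR adjusted p = 0.065). The second of these was called by DESeq2 (adjusted p = 0.029), when only the MPTN and MPTN24 libraries entered the fit (edgeR adjusted p = 0.035), without replicate 1 of MPTN24 (edgeR adjusted p = 0.046) and without replicate 1 of WT (edgeR adjusted p = 0.043).

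ADAM17 had 47.8, 39.0 and 33.6 CPM in MPTN, 39.6, 47.2 and 44.4 CPM in MPTN24 and 45.9, 54.0 and 46.2 CPM in WT. The groups overlapped and no comparison was called. The largest log2 change was -0.28 ± 0.13 in MPTN against WT (95% interval -0.56 to -0.0012, edgeR adjusted p = 0.11), and without replicate 1 of MPTN it was -0.42 and called (edgeR adjusted p = 0.024). ADAM17 shares 1323 exonic bases with IAH1 on the opposite strand, a hydrolase gene at a mean of 44.0 CPM, so reads of that stretch cannot be assigned to either. IAH1 itself was not called in any comparison.

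ADAM9 had 169, 163 and 147 CPM in MPTN, 160, 181 and 187 CPM in MPTN24 and 213, 240 and 198 CPM in WT. Every WT library lay above the other groups, which overlapped each other. It was 1.36-fold lower in MPTN than in WT (log2 change -0.44 ± 0.10, edgeR adjusted p = 0.0039). The smaller difference in MPTN24, 1.23-fold lower than in WT (log2 change -0.30 ± 0.10, edgeR adjusted p = 0.047), lay at the threshold and was not called in 10 of the 19 alternatives run. These include leaving out any MPTN24 library, replicate 2 of WT or replicate 1 or 2 of MPTN (edgeR adjusted p = 0.059 to 0.20).

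ADAM15 had 283, 290 and 390 CPM in MPTN, 358, 285 and 328 CPM in MPTN24 and 282, 242 and 264 CPM in WT. In CPM, each WT library lay below the others, by little in the nearest case. In FPKM, replicate 3 of WT, at 99.4, lay above replicates 1 and 2 of MPTN, at 94.4 and 98.2. Neither difference was called: the log2 change was 0.30 ± 0.13 in MPTN24 against WT (edgeR adjusted p = 0.11) and 0.29 ± 0.13 in MPTN against WT (edgeR adjusted p = 0.095). The first was called without replicate 3 of MPTN, at the same log2 change of 0.30 (edgeR adjusted p = 0.041). ADAM15 shares 306 exonic bases with DCST1 on the same strand, which averaged 0.106 CPM.

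ADAM8, at chr10:133262420-133276868 on the minus strand, had 180, 184 and 191 CPM in MPTN, 261, 248 and 269 CPM in MPTN24 and 202, 76.1 and 82.7 CPM in WT. The MPTN and MPTN24 libraries were tight, and in CPM replicate 1 of WT lay above all of MPTN. In FPKM that library, at 54.2, lay just below MPTN, at 55.0 to 56.4. With all libraries, the log2 change was 1.11 ± 0.36 in MPTN24 against WT (edgeR adjusted p = 0.065), 0.62 ± 0.35 in MPTN against WT (edgeR adjusted p = 0.23) and -0.49 ± 0.35 in MPTN against MPTN24 (edgeR adjusted p = 0.44), and edgeR called none of them. On the same libraries the first was called by DESeq2 (adjusted p = 0.027) and by limma on FPKM at either pseudocount (adjusted p = 0.016 and 0.014), the second by limma alone (adjusted p = 0.044 and 0.037), and the third when only MPTN and MPTN24 entered the fit (edgeR adjusted p = 0.00083). Without replicate 1 of WT, edgeR called all 3: 1.71 in MPTN24 against WT (edgeR adjusted p = 1.1e-07), 1.22 in MPTN against WT (edgeR adjusted p = 5.7e-07) and -0.49 in MPTN against MPTN24 (edgeR adjusted p = 0.00056). Among ADAM15, ADAM8 and ADAM9, this library changed a call in ADAM8 alone. The same library held the high MMP1, low FOS and high mitochondrial share given above, and their part in its ADAM8 level was not tested.

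ADAM12, a sheddase of HB-EGF that is raised in many carcinomas, had 14.3, 13.2 and 11.6 CPM in MPTN, 10.9, 10.1 and 12.3 CPM in MPTN24 and 13.9, 10.1 and 9.86 CPM in WT. The groups overlapped. The log2 change was 0.21 ± 0.15 in MPTN against WT (edgeR adjusted p = 0.32) and -0.022 ± 0.15 in MPTN24 against WT (95% interval -0.35 to 0.31, edgeR adjusted p = 0.94). Without replicate 1 of WT, ADAM12 was called higher in MPTN (log2 change 0.38, edgeR adjusted p = 0.042).

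ADAM11, ADAM22 and ADAM23 lack the zinc motif and are known as partners of LGI proteins at synapses or of integrins. ADAM23 had 0.481, 0 and 0.284 CPM in MPTN, 1.90, 2.45 and 1.1 CPM in MPTN24 and 1.24, 1.01 and 1.68 CPM in WT. The MPTN libraries lay below all others, on 36, 0 and 28 counts. The log2 change was -2.83 ± 0.83 in MPTN against MPTN24 (edgeR adjusted p = 0.047) and -2.36 ± 0.82 in MPTN against WT (edgeR adjusted p = 0.046). Both lay just inside the threshold, and neither was called without replicate 3 of MPTN, without any 1 of the WT libraries or without any 1 of the MPTN24 libraries (edgeR adjusted p = 0.057 to 0.13). Of the 19 alternatives, 9 kept the call against MPTN24 and 6 kept that against WT, which DESeq2 did not make (adjusted p = 0.063). ADAM11 and ADAM22, at 0.122 and 0.107 FPKM over the 9 libraries, were not called in any comparison.

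Of the other tested ADAMTS genes, ADAMTS13 and ADAMTS6 were called. ADAMTS13, the protease that trims von Willebrand factor, had 0.628, 0.802 and 1.2 CPM in MPTN, 0.294, 0.457 and 0.513 CPM in MPTN24 and 0.238, 0.245 and 0.0795 CPM in WT. The groups did not overlap, with MPTN highest, although the level in WT rested on 15, 17 and 7 counts. It was 4.70-fold higher in MPTN than in WT (log2 change 2.23 ± 0.56, edgeR adjusted p = 0.0062), and the log2 changes of 1.18 ± 0.56 in MPTN24 against WT (edgeR adjusted p = 0.15) and 1.05 ± 0.53 in MPTN against MPTN24 (edgeR adjusted p = 0.21) were not called.

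The ADAMTS13 span, at chr9:133414358-133459402 on the plus strand, overlaps REXO4 on the opposite strand by 3739 bases. REXO4, an exonuclease gene, averaged 62.4 CPM in MPTN, 65.6 CPM in MPTN24 and 94.5 CPM in WT. It was therefore far more abundant than ADAMTS13 and lower where ADAMTS13 was higher. The annotation lists no exonic base that they share, and the part of REXO4 reads in the ADAMTS13 counts was not tested.

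ADAMTS6, a protease of microfibril proteins, had 2.08, 2.43 and 2.84 CPM in MPTN, 2.64, 2.18 and 3.27 CPM in MPTN24 and 7.42, 3.72 and 2.51 CPM in WT. The groups overlapped and the highest library was replicate 1 of WT. The log2 change in MPTN against WT was -0.89 ± 0.33 (edgeR adjusted p = 0.049), and without replicate 1 of WT it was -0.34 and not called (edgeR adjusted p = 0.34). Leaving out replicate 2 of WT, or any 1 of the MPTN or MPTN24 libraries, also ended the call (edgeR adjusted p = 0.051 to 0.14). In MPTN24 against WT it was called only without replicate 3 of WT (log2 change -1.05, edgeR adjusted p = 0.029).

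The remaining tested members were not called in any comparison. ADAMTS16 averaged 3.97 ± 0.852 CPM in MPTN, 3.87 ± 0.745 CPM in MPTN24 and 3.31 ± 0.149 CPM in WT (SD, n = 3 each). ADAMTS17 averaged 0.384 ± 0.236 CPM in MPTN, 0.496 ± 0.245 CPM in MPTN24 and 0.830 ± 0.292 CPM in WT. ADAMTS15, a proteoglycan-cutting enzyme, had 0.481, 0.789 and 0.406 CPM in MPTN, 0.0691, 0.289 and 0.218 CPM in MPTN24 and 0.238, 0.289 and 0 CPM in WT. All its MPTN libraries lay above the others, with a log2 change of 1.68 ± 0.97 against WT (edgeR adjusted p = 0.20) and 1.52 ± 0.96 against MPTN24 (edgeR adjusted p = 0.33). ADAM28 had counts in 5 of 9 libraries, with 22, 0 and 39 in MPTN, 0, 12 and 0 in MPTN24 and 0, 24 and 11 in WT.

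Metalloprotease inhibitors, maturation factors and substrates were read from lists compiled by function, and their counts stand against all tested genes. Those shares were 18.3% higher and 18.1% lower in MPTN against WT, 11.1% and 12.1% in MPTN24 against WT, and 7.85% and 6.7% in MPTN against MPTN24. Without replicate 1 of WT they were 18.4% and 18.7% in MPTN against WT and 12.9% and 14.4% in MPTN24 against WT. Among 7 metalloprotease inhibitors, 5 were tested. Which of them act on ADAM or ADAMTS proteases was not examined. In MPTN 3 were called against WT, all higher (18.3% of all tested genes were), with a list median log2 change of 0.72, and without replicate 1 of WT 3 were higher and 1 lower. SPOCK1, a proteoglycan of the testican family, averaged 23.8 CPM in MPTN and 10.7 CPM in WT (log2 change with its SE 1.15 ± 0.18, edgeR adjusted p = 0.00024), TIMP2 averaged 122 CPM in MPTN and 68.9 CPM in WT (log2 change 0.82 ± 0.10, edgeR adjusted p = 4.8e-05), and TIMP1 averaged 73.0 CPM in MPTN and 44.4 CPM in WT (log2 change 0.72 ± 0.13, edgeR adjusted p = 0.00077). TIMP2 was also the 1 inhibitor called in MPTN24 against WT (log2 change 0.63 ± 0.10, edgeR adjusted p = 0.0012), and without replicate 1 of WT 2 were higher and 1 lower. In MPTN against MPTN24 SPOCK1 alone was called, higher by 1.52 ± 0.18 on the log2 scale (edgeR adjusted p = 0.00014). TIMP3, the main TIMP acting on ADAM17 and on ADAMTS enzymes, averaged 23.3 CPM in MPTN, 28.8 CPM in MPTN24 and 25.3 CPM in WT. RECK averaged 4.72 CPM in MPTN, 4.96 CPM in MPTN24 and 5.93 CPM in WT. With all libraries, neither TIMP3 nor RECK was called in any comparison. Without replicate 1 of WT, SPOCK1, TIMP2 and TIMP1 stayed called higher in MPTN than in WT. The 1 inhibitor then called lower was therefore another, and may be TIMP3 or RECK.

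The 18 maturation and trafficking genes were all tested. In MPTN24 7 were called against WT, all higher, where 11.1% of all tested genes were higher, and 6 without replicate 1 of WT, where 12.9% were. The list median log2 change was 0.11. Against WT, 8 were higher and 2 lower in MPTN, with or without that library. RHBDF2, the iRhom that carries ADAM17 to the surface of immune and epithelial cells, averaged 51.4 CPM in MPTN, 47.9 CPM in MPTN24 and 28.6 CPM in WT, a log2 change of 0.84 ± 0.13 in MPTN (edgeR adjusted p = 0.00018) and 0.74 ± 0.13 in MPTN24 (edgeR adjusted p = 0.0014). Its paralogue RHBDF1 changed by 0.53 ± 0.12 in MPTN and 0.66 ± 0.12 in MPTN24 against WT (edgeR adjusted p = 0.0025 and 0.0016). TSPAN10, a tetraspanin partner of ADAM10, averaged 6.78 CPM in MPTN, 6.43 CPM in MPTN24 and 3.12 CPM in WT (log2 changes 1.12 ± 0.19 and 1.04 ± 0.19 against WT, edgeR adjusted p = 0.00038 and 0.0018).

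SH3PXD2B, a scaffold of invadopodia, averaged 67.7 CPM in MPTN, 71.6 CPM in MPTN24 and 42.9 CPM in WT (log2 changes 0.66 ± 0.10 and 0.74 ± 0.10 against WT, edgeR adjusted p = 0.00019 and 0.0004). SH3PXD2A, its relative that binds the tails of ADAM12, ADAM15 and ADAM19, averaged 135 CPM in MPTN, 215 CPM in MPTN24 and 241 CPM in WT, with a log2 change of -0.83 ± 0.12 in MPTN against WT (edgeR adjusted p = 0.00012). PCSK6, a furin-type convertase, averaged 7.13 CPM in MPTN, 12 CPM in MPTN24 and 12.2 CPM in WT (log2 change -0.78 ± 0.16 in MPTN against WT, edgeR adjusted p = 0.0021). FURIN itself was more abundant, at 82.9 CPM in MPTN, 88.6 CPM in MPTN24 and 67.0 CPM in WT. It was called higher in MPTN and in MPTN24 than in WT (log2 changes 0.31 ± 0.10 and 0.40 ± 0.10, edgeR adjusted p = 0.031 and 0.013). The convertase genes PCSK5 and PCSK7 were not called in any comparison. In MPTN against MPTN24 3 of the 18 were called, all lower: the log2 change was -0.75 ± 0.16 for PCSK6, -0.67 ± 0.12 for SH3PXD2A and -0.34 ± 0.10 for the disulfide isomerase PDIA6 (edgeR adjusted p = 0.0079, 0.0020 and 0.035).

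Of 7 EGF receptor ligands that ADAM proteases release, 6 were tested. In MPTN24 1 was called against WT, AREG (amphiregulin), which was lower, at 271 CPM in MPTN24 and 428 CPM in WT (log2 change -0.66 ± 0.09, edgeR adjusted p = 0.0005). Without replicate 1 of WT, with 7 tested, 2 were higher and 2 lower, where 12.9% and 14.4% of all tested genes were. AREG was among the lower (log2 change -0.63, edgeR adjusted p = 0.00038), and the others were not called with that library in the fit. The 2 called in MPTN against WT, with or without that library, were higher: BTC (betacellulin), at 3.04 CPM in MPTN and 0.432 CPM in WT (log2 change 2.82 ± 0.37, edgeR adjusted p = 6.2e-05), and HBEGF (HB-EGF), at 171 CPM in MPTN and 126 CPM in WT (log2 change 0.44 ± 0.11, edgeR adjusted p = 0.0073). In MPTN against MPTN24 3 were higher, BTC by 1.91 ± 0.35, HBEGF by 0.75 ± 0.11 and AREG by 0.74 ± 0.09 on the log2 scale (edgeR adjusted p = 0.0028, 0.00077 and 0.0002). The list median was -0.20 in MPTN24 against WT, 0.030 in MPTN against WT and 0.41 in MPTN against MPTN24.

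Among 36 other membrane substrates of ADAM10 and ADAM17, 34 were tested and both directions occurred. In MPTN24 against WT 7 were higher and 6 lower, and without replicate 1 of WT 9 were higher and 6 lower. In MPTN against WT 8 were higher and 6 lower, against 18.3% and 18.1% of all tested genes, and without that library 14 were higher and 7 lower, against 18.4% and 18.7%. NRG1 (neuregulin 1), a ligand of ERBB receptors, averaged 79.4 CPM in MPTN, 118 CPM in MPTN24 and 303 CPM in WT, a log2 change of -1.93 ± 0.14 in MPTN (edgeR adjusted p = 4.4e-07) and -1.36 ± 0.13 in MPTN24 (edgeR adjusted p = 6.4e-05). IL1R2, a decoy receptor of interleukin 1, changed by -1.54 ± 0.25 in MPTN and -1.04 ± 0.25 in MPTN24 against WT (edgeR adjusted p = 0.00036 and 0.010). Without replicate 1 of WT these IL1R2 changes shrank to -1.07 and -0.57 and were still called (edgeR adjusted p = 0.00013 and 0.014).

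Of the substrates that were higher, NECTIN4, an adhesion molecule of carcinomas, averaged 5.38 CPM in MPTN, 5.68 CPM in MPTN24 and 1.97 CPM in WT (log2 changes 1.44 ± 0.27 and 1.52 ± 0.27, edgeR adjusted p = 0.0010 and 0.0019). LRP1, an endocytic receptor, averaged 140 CPM in MPTN, 163 CPM in MPTN24 and 75.9 CPM in WT (log2 changes 0.89 ± 0.15 and 1.1 ± 0.15, edgeR adjusted p = 0.00054 and 0.00047). L1CAM, a neural adhesion molecule, averaged 330 CPM in MPTN, 202 CPM in MPTN24 and 154 CPM in WT (log2 changes 1.1 ± 0.10 and 0.39 ± 0.09, edgeR adjusted p = 2.3e-06 and 0.010). In MPTN against MPTN24 6 were higher and 4 lower. The largest of these were CDH2 (N-cadherin) at 1.2 ± 0.15, ICAM1 at 1.09 ± 0.22, SDC4 (syndecan 4) at 0.73 ± 0.10 and L1CAM at 0.71 ± 0.09 on the log2 scale (edgeR adjusted p = 0.00021, 0.0099, 0.0003 and 0.00028).

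Of 20 matrix substrates of ADAMTS enzymes, 11 were tested. In MPTN against WT 2 were higher and 2 lower (2 and 3 of 12 tested without replicate 1 of WT), close to the 18.3% and 18.1% of all tested genes. THBS1 (thrombospondin 1), which ADAMTS1 is known to cut, averaged 349 CPM in MPTN, 536 CPM in MPTN24 and 1584 CPM in WT, a log2 change of -2.18 ± 0.16 in MPTN (edgeR adjusted p = 6e-07) and -1.56 ± 0.16 in MPTN24 (edgeR adjusted p = 7.5e-05). FN1 (fibronectin) averaged 64.9 CPM in MPTN, 149 CPM in MPTN24 and 179 CPM in WT, with -1.46 ± 0.19 in MPTN against WT (edgeR adjusted p = 0.00016) and -1.2 ± 0.19 in MPTN against MPTN24 (edgeR adjusted p = 0.0021). COL5A1 averaged 111 CPM in MPTN, 92.7 CPM in MPTN24 and 56.0 CPM in WT, with 0.99 ± 0.09 in MPTN and 0.73 ± 0.09 in MPTN24 against WT (edgeR adjusted p = 2.3e-06 and 0.0002). TFPI2, a matrix-bound protease inhibitor, averaged 25.4 CPM in MPTN and 15.3 CPM in WT (log2 change 0.74 ± 0.21, edgeR adjusted p = 0.016). In MPTN24 against WT 1 was higher and 1 lower, COL5A1 and THBS1 (2 and 2 without replicate 1 of WT), and in MPTN against MPTN24 2 were called, both lower, FN1 and THBS1.

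Of 8 ADAMTS-like and related genes, whose proteins have thrombospondin repeats but no protease domain, 5 were tested. THSD4 (also known as ADAMTSL6), a microfibril protein, averaged 56.1 CPM in MPTN, 58.1 CPM in MPTN24 and 38.7 CPM in WT (log2 changes 0.53 ± 0.14 and 0.59 ± 0.14, edgeR adjusted p = 0.0084 and 0.0098). ADAMTSL5 averaged 11.1 CPM in MPTN, 7.82 CPM in MPTN24 and 6.33 CPM in WT, with 0.82 ± 0.15 in MPTN against WT (edgeR adjusted p = 0.00076) and 0.51 ± 0.15 in MPTN against MPTN24 (edgeR adjusted p = 0.033). ADAMTSL1 was lower in MPTN, at 1.62 CPM, than in MPTN24, at 3.77 CPM (log2 change -1.21 ± 0.25, edgeR adjusted p = 0.0057). PAPLN (papilin) was higher in MPTN than in WT (log2 change 1.25 ± 0.41, edgeR adjusted p = 0.028) and was not called without replicate 1 of WT (edgeR adjusted p = 0.052). In all, 3 were called in MPTN against WT, each higher, where 18.3% of all tested genes were (2 higher and 1 lower without replicate 1 of WT), and 1 was higher in MPTN24 against WT with or without it.

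**Figure D4:**
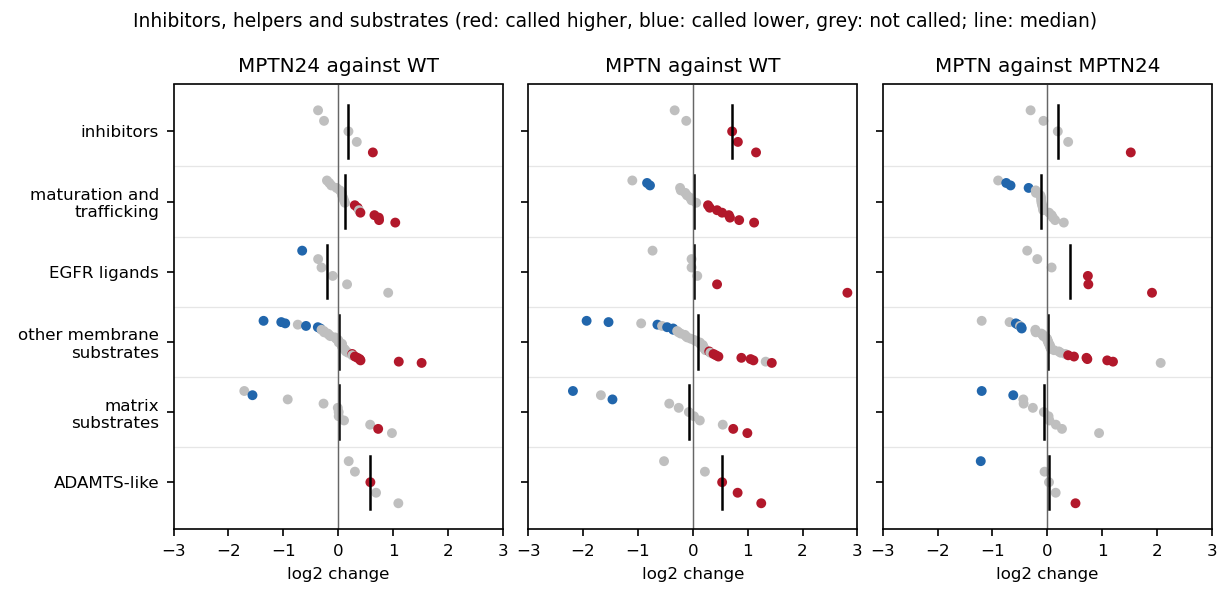
Log2 change of each tested inhibitor, maturation factor, EGF receptor ligand, other membrane substrate, matrix substrate and ADAMTS-like gene in the 3 comparisons, with called genes in red or blue and the list median as a vertical line. The inhibitor median is 0.72 in MPTN against WT, and the ligand median is -0.20 in MPTN24 against WT and 0.41 in MPTN against MPTN24.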

How the data were processed

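RNA of HSC-3 cells was extracted with Trizol and made into libraries with an Illumina TruSeq RNA kit, per the labels' protocols. The kit does not record strand. The tools listed in the submitters' processing notes are HISAT2, StringTie, edgeR, CASAVA 1.8, FastQC and Trimmomatic, with the build GRCh38, and their order, settings and annotation release are not given in the sources used here. Estimated counts per gene, all whole numbers, were deposited by the authors beside a second table whose unit was inferred to be FPKM. Counts of 4 were more frequent, at 6716 values, than counts of 3 or 5, at 4548 and 3190, although a count of 1 was the most frequent, at 8706, so 1 read pair may give several counts.

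Libraries were grouped by the sample group in the labels. The main test was edgeR 4.0.16 (R 4.3.3), quasi-likelihood with robust fitting, on the estimated counts of all 9 libraries with TMM scaling and filterByExpr (minimum count 10, minimum total 15). Standard errors are of the log2 change, intervals are 95%, and p-values were Benjamini-Hochberg adjusted over all 16990 genes tested. The procedure was tested on simulated data. Alternatives were other scalings and filters, counts divided by 4, a replicate block, only the groups compared, each library left out, DESeq2 1.42.0, and limma 3.58.1 on log2(FPKM + 0.1) and log2(FPKM + 1). The members and the lists were chosen with earlier results of these data known. Values were given for each member called in any comparison, for ADAM8, ADAM9, ADAM10, ADAM12, ADAM15, ADAM17, ADAM19, ADAMTS1, ADAMTS4 and ADAMTS5, and for up to 4 called genes per list and comparison with the largest changes whose higher group averaged 1 CPM or more. Matches of the zinc motif were searched in the coding sequence of GENCODE 29 transcripts.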

Additional observations from a re-analysis of the deposited data

How the results depend on the processing

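Over 19 alternatives no called change of a member changed sign, while some uncalled ones did, such as ADAM12 and ADAMTS15 in MPTN24 against WT. ADAMTS1 in all 3 comparisons, ADAM19 in MPTN24 against WT and in MPTN against MPTN24, and ADAM9 and ADAM10 in MPTN against WT were called in each, and ADAMTS13 in MPTN against WT in the 18 that tested it. For members called in the main test, 193 of the repeated results stayed called and 53 did not, and for the others 684 stayed uncalled and 17 became called. The count of members higher in MPTN24 than in WT, 1, was 2 with DESeq2 and with limma at either pseudocount, and 1 to 2 when a library was left out. The count lower in MPTN24 than in WT, 2, was 1 with upper-quartile scaling, with only the groups compared and with limma at either pseudocount, and 1 to 3 when a library was left out. The count higher in MPTN than in WT, 2, was 1 with the stricter filter and with only the groups compared, and 1 to 4 when a library was left out. The count lower in MPTN than in WT, 5, was 3 with upper-quartile scaling, with the replicate block, with only the groups compared and with limma at a pseudocount of 1, and 3 to 5 when a library was left out. The count lower in MPTN than in MPTN24, 2, was 1 with no filter and with the replicate block, and 1 to 3 when a library was left out. With the replicate block ADAM23 lost both its calls and ADAMTS6 its call, and no other count moved by over 1.5 times. With limma the count higher in MPTN than in WT stayed at 2, but ADAM8 replaced ADAM19. The main test did not pair libraries by number. The correlation of their deviations exceeded 0.1 in 4 of 9 same-numbered pairs and in 3 of 18 others, with ranges of -0.20 to 0.22 and -0.24 to 0.24. These pairs share libraries, so the counts cannot decide whether the numbers pair them. Of all genes called in MPTN24 against WT, 47.9% were higher in the main test, 59.3% with upper-quartile scaling and 65.5% with limma at 0.1. In MPTN against WT these shares were 50.4%, 58.3% and 66.4%, and in MPTN against MPTN24 54%, 56% and 67.8%. The median of all genes in MPTN against WT was 0.12 with limma at 0.1 and 0.021 in the main test. The causes were not tested. Members under about 1 CPM rest on few read pairs.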
